A study of Mus musculus with 29 samples.

Results

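Complement genes were followed in RNA bound to tagged ribosomes of microglia, the resident macrophages of the brain, in the cortex of 29 mice. The 9 genes are C1qa, C1qb and C1qc (the chains of C1q), C4b and C3 (components further down the cascade), C3ar1 and C5ar1 (receptors for the C3a and C5a fragments), and Itgam and Itgb2 (the chains of complement receptor CR3). They were chosen by name among the 22327 gene symbols of the deposited count table. All 9 were in the table, and all 9 were among the 16074 genes that passed the filter on low counts.

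Complement is a cascade of blood and tissue proteins that marks targets for removal. C1q recognises a target and starts the classical pathway, which cleaves C4 and then C3. Fragments of C3 left on the target are read by CR3 and by its relative CR4, while the released fragments C3a and C5a act on C3ar1 and C5ar1. In the brain microglia are the chief source of C1q, and C1q, C3 and CR3 are known from work on microglial removal of synapses in development and in mouse models of amyloid disease.

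The study concerned the integrated stress response in microglia, a pathway that lowers protein synthesis once eIF2α, encoded by Eif2s1, is phosphorylated. Every mouse carried Cx3cr1CreErt2/+, was gavaged with 6 doses of 100 mg/kg tamoxifen to switch on a tagged ribosomal protein, eGFP-L10a, from the Eef1a1 locus, and was 6 months old. Each library came from 1 mouse, and there were 7 groups. 5xFAD iPKR mice (n = 4) and iPKR ASV mice (n = 5) had Eef1a1LSL.NS3.eGFPL10a.iPKR/+, in which the same locus encodes the viral protease NS3, the tag and a PKR kinase that can be switched on. Both received 1 µg/kg VEGF and 5 mg/kg ASV (asunaprevir, an NS3 inhibitor), repeated over 4 weeks. iPKR vehicle mice (n = 4) had the same construct and received VEGF with the DMSO:PEG300 solvent. 5xFAD Eif2A (n = 3) and Eif2A (n = 4) mice carried Eif2s1A/A, whose product cannot be phosphorylated, with the transgene Tg(Eif2s1) and, per the sample labels, Eef1a1LSL.eGFPL10a/+, and were given tamoxifen alone. 5xFAD TRAP mice (n = 4) carried Eef1a1LSL.eGFPL10a/+ and received VEGF and ASV, while TRAP mice (n = 5) had the same tag and received tamoxifen alone. 5xFAD mice carry transgenes, driven by the neuronal Thy1 promoter, that give amyloid plaques. The Cx3cr1 promoter is also active in other macrophages and in monocytes, so the tag is not limited to microglia by design.

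Totals ran between 1662486 and 31998042 counts per library. The iPKR libraries stood apart from the others. The 12 of 15 listed homeostatic microglial genes found in the table made up 0.108% to 0.637% of counts in 5xFAD iPKR libraries, 0.0570% to 0.304% in iPKR ASV libraries and 0.130% to 0.179% in iPKR vehicle libraries, against 1.30% to 2.01% in the 16 libraries without the construct. Of the 12, Cx3cr1 was at 0 in 1 library and the others were detected in all 29. The neuron marker genes held 0.544% to 3.52% of counts in iPKR libraries and 0.0742% to 0.428% in the others. They were highest in iPKR ASV replicate 3 and 5xFAD iPKR replicates 1 and 2. The labelled sex of 8 libraries differed from their Y-linked counts, while each group kept its number of females and males. Eif2s1 held 136 to 159.4 CPM (counts scaled to library size) in Eif2A libraries, against 118.2 to 139.3 CPM in TRAP libraries, and counts of a gene with a substituted residue do not check those labels. Cx3cr1 held 17.0 to 720 CPM in TRAP libraries, with a median of 662.1 CPM. The cause of that lowest value was not tested. Monocyte and neutrophil genes held at most 0.00169% of counts in any library.

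The C1q chains were by far the most abundant of the 9 genes in ribosome-bound RNA. Per kilobase of exon, C1qb averaged 8283 ± 1772 CPM in 5xFAD TRAP libraries (SD, n = 4) and 7230 ± 1901 CPM in TRAP libraries (SD, n = 5). C1qa followed with 4592 ± 1004 and 3790 ± 1077 CPM per kilobase in the same groups, and C1qc with 3525 ± 1065 and 3084 ± 756. The order C1qb, C1qa, C1qc held for the means of all 7 groups. The ranges of C1qa and C1qc across libraries overlapped in every group other than 5xFAD Eif2A. Within each library C1qa lay above C1qc, except in iPKR vehicle replicate 1 (100.3 against 101.3 CPM per kilobase). Together the chains took 1.20% to 2.37% of all counts in the libraries without the iPKR construct.

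CR3 and the anaphylatoxin receptors came next. In TRAP libraries Itgb2 stood at 80.9 ± 15.2, Itgam at 72.6 ± 8.69, C5ar1 at 49.6 ± 8.21 and C3ar1 at 33.2 ± 3.15 CPM per kilobase (SD, n = 5). Itgb2 and Itgam overlapped there, while Itgam lay above C5ar1 and C5ar1 above C3ar1 in every library of the group. The order differed in 5xFAD TRAP libraries, where Itgb2 (115.9 to 146 CPM per kilobase) lay above Itgam (56.9 to 85.3) without overlap and C3ar1 overlapped C5ar1. C4b (0.780 ± 0.431) and C3 (0.253 ± 0.221) were the lowest in TRAP libraries.

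C1q was first compared between 5xFAD mice and their controls. C1qb stood at 7070, 7685, 10270 and 11020 CPM in 5xFAD TRAP libraries, against 5387, 7042, 10310, 6892 and 9699 CPM in TRAP libraries. The groups overlapped, and so did those of C1qa and C1qc. The log2 fold changes of 5xFAD TRAP over TRAP were -0.02 ± 0.51 for C1qa, -0.15 ± 0.55 for C1qb and -0.23 ± 0.53 for C1qc (SE), with adjusted p of 0.998, 0.968 and 0.934 by edgeR's quasi-likelihood test. The 95% interval for C1qb, -1.27 to 0.98, leaves room for changes of about that size in either direction.

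**Figure D1:**
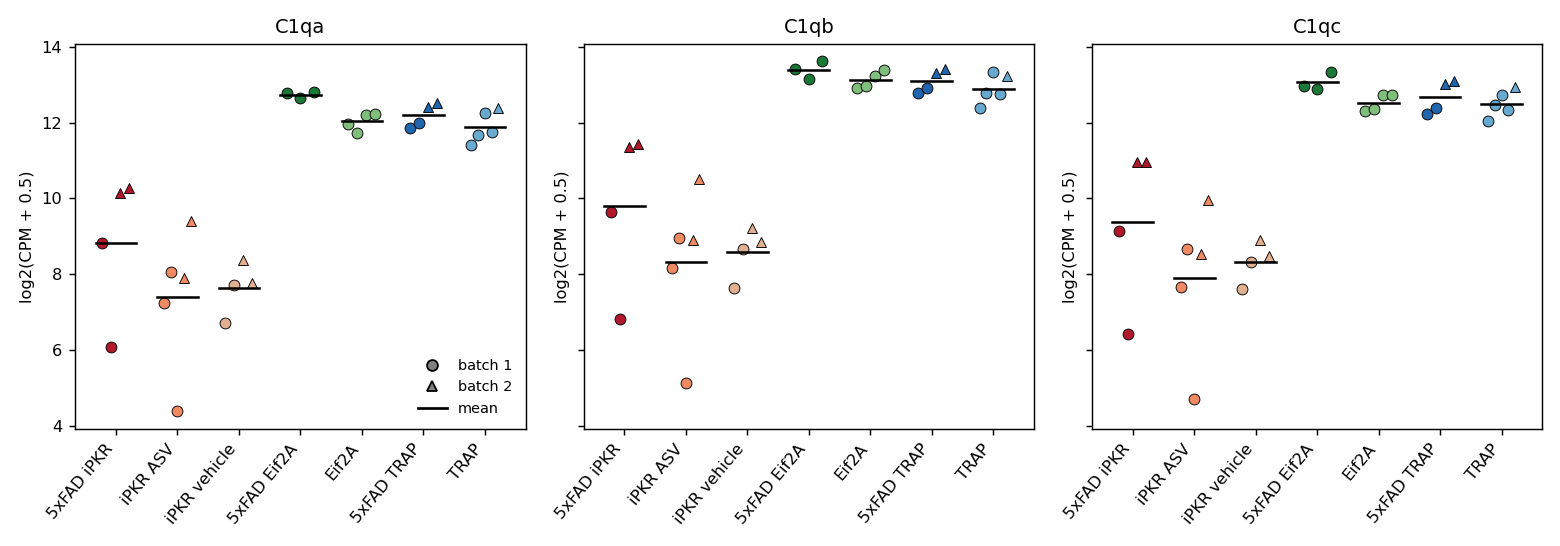
Levels of C1qa, C1qb and C1qc in every library as log2(CPM + 0.5), by group, with circles for batch 1, triangles for batch 2 and a bar for the mean of the plotted values. The 13 iPKR libraries lie below the 16 others for all 3 chains, and within the iPKR groups the libraries spread widely, with C1qb at 34.2 to 2762 CPM.

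In the mice labelled with Eif2s1A/A and Tg(Eif2s1), C1qa stood at 7006, 6412 and 7137 CPM in 5xFAD Eif2A libraries, against 3987, 3421, 4758 and 4774 CPM in Eif2A libraries. All 3 libraries of 5xFAD Eif2A were above all 4 of Eif2A. C1qc did not overlap either (7607 to 10410 against 5035 to 6830 CPM), while C1qb did (9137 to 12570 against 7736 to 10750 CPM). In the model over all 29 libraries none of the 3 passed the test, with log2 fold changes of 0.72 ± 0.55, 0.54 ± 0.58 and 0.30 ± 0.60 for C1qa, C1qc and C1qb (SE, adjusted p = 0.618, 0.759 and 0.897). In a model of the 4 groups without iPKR the log2 fold changes were 0.71 ± 0.14 for C1qa (adjusted p = 0.00219) and 0.53 ± 0.16 for C1qc (adjusted p = 0.0278), and both passed, while C1qb (0.30 ± 0.16, adjusted p = 0.251) did not. That model called 15.1% of all genes in this comparison.

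The 3 chains moved together from library to library. Over the 16 libraries without iPKR, the deviations of log2 CPM from the group mean correlated between chains with Pearson r of 0.918 to 0.945, given as a description since the chains share library, batch and depth. C1qa counts over C1qb counts averaged 0.522 ± 0.0610 over all 29 libraries (SD), although C1q itself differed many-fold between them. The ratio was 0.568 to 0.702 in 5xFAD Eif2A libraries, against 0.430 to 0.515 in Eif2A libraries, without overlap. That was a log2 difference of 0.43 (exact permutation test, two-sided, p = 0.0286, the smallest the design allows; adjusted p = 0.113 over 32 ratio comparisons), so it did not pass.

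The genes whose deviations over those 16 libraries were most like the mean of the 3 chains, among 9608 genes, were Ddrgk1 (Pearson r = 0.965), Saraf (0.952), Selplg (0.95), Rer1 (0.936) and Tmem50a (0.935). Selplg encodes the selectin ligand PSGL-1 and is one of the listed homeostatic microglial genes. Saraf encodes a regulator of store-operated calcium entry. Ddrgk1 and Rer1 encode proteins of the endoplasmic reticulum and its traffic with the Golgi.

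The labelled batch moved with C1q. In the model with group and labelled sex, batch 2 over batch 1 gave log2 fold changes of 1.14 ± 0.37 for C1qa, 1.23 ± 0.41 for C1qb and 1.31 ± 0.39 for C1qc (SE, adjusted p = 0.0335, 0.0367 and 0.0229), and of -1.71 ± 0.57 for C4b (adjusted p = 0.0372). Those 4 of 9 genes passed, against 18.2% of all genes tested. The term is fitted over all groups. The libraries highest in neuron markers, iPKR ASV replicate 3 and 5xFAD iPKR replicates 1 and 2, are all of batch 1. In 5xFAD iPKR mice C1qa held 448.7 and 67.5 CPM in batch 1, against 1125 and 1236 CPM in batch 2. In 5xFAD TRAP mice it held 3691 and 4107 CPM, against 5423 and 5884 CPM. C4b held 142.5 and 191.2 against 22.7 and 19.0 CPM in 5xFAD iPKR mice, and 6.34 and 6.58 against 2.85 and 0 CPM in 5xFAD TRAP mice. The part of the iPKR libraries in this term was not tested. The batch label is the submitters', and what differed between batches is not stated. Within batch 1 alone, C1qb of 5xFAD TRAP over TRAP was 0.03 ± 0.69 on the log2 scale.

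The 3 C1q genes are neighbours on chromosome 4 of mouse (mm10), all on the minus strand. C1qb (chr4:136880129-136886187), C1qc (chr4:136889804-136893065) and C1qa (chr4:136895917-136898803) fit in 18675 bases. As genes that move together, C1qb and C1qc are shown with the RefSeq promoter windows of GRCm38.p6, 250 bases before to 50 after the start, read along the minus strand. Capitals mark the sequence GAGGAAGT, of the type bound by the macrophage factor PU.1, and its core GAGGAA, on either strand (ACTTCCTC and TTCCTC are their reverse complements, and each GAGGAAGT contains a core).
C1qb, chr4:136886151-136886450: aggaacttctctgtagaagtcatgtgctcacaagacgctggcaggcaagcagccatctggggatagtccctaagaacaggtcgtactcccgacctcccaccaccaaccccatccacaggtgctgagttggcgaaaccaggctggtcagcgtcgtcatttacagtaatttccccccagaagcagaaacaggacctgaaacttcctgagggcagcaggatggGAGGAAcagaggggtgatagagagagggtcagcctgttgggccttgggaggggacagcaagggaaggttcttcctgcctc
C1qc, chr4:136892865-136893164: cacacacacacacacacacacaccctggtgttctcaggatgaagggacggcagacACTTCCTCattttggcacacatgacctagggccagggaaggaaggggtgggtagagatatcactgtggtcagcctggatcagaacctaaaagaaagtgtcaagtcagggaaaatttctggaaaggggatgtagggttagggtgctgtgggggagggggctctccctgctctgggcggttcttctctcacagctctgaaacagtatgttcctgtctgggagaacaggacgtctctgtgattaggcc
The C1qc window held the full GAGGAAGT on the other strand, a sequence found in 3.2% of the 32851 promoter windows of that table. The C1qb window held the core alone, which 28.3% of windows do. Neither window held the interferon-type sequence GAAANNGAA (8.56% of windows) or the C/EBP-ATF-type sequence TGATGNAA (3.97%). Windows were found for 6 of the 9 genes, the others being C3, C3ar1, C5ar1 and Itgam. Of these, Itgam held 3 cores and C5ar1 a GAAANNGAA match. These are matches of letters only.

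C4b, whose product is cleaved by the C1 complex to carry the pathway on, was near the bottom of the range outside the iPKR mice. It stood at 9.85, 8.24 and 8.82 CPM in 5xFAD Eif2A libraries, against 3.06, 2.76, 4.49 and 1.24 CPM in Eif2A libraries. The groups did not overlap, but the log2 fold change of 1.61 ± 0.86 (SE) did not pass (adjusted p = 0.402), and counts were 47 to 54 and 10 to 86 per library. In 5xFAD TRAP libraries C4b stood at 6.34, 6.58, 2.85 and 0 CPM, against 4.96, 5.69, 4.79, 0.232 and 6.54 CPM in TRAP libraries, with a log2 fold change of -0.10 ± 0.84 (adjusted p = 0.989).

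In 5xFAD iPKR mice C4b was the one of the 9 genes that rose above its level in mice without the construct. It reached 142.5, 191.2, 22.7 and 19.0 CPM in 5xFAD iPKR libraries, against the 0 to 6.58 CPM of 5xFAD TRAP. Every 5xFAD iPKR library was above every 5xFAD TRAP library. C4b rose by 4.26 ± 0.91 on the log2 scale, a 19.2-fold difference (SE, adjusted p = 0.000369). iPKR ASV libraries held 6.13, 13.8, 59.2, 6.96 and 1.68 CPM and iPKR vehicle libraries 0.558, 6.39, 3.78 and 1.56 CPM, and there the groups overlapped (log2 fold change 1.78 ± 0.83, adjusted p = 0.283).

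The 3 libraries with the highest C4b, 5xFAD iPKR replicates 2 and 1 and iPKR ASV replicate 3, were also the 3 with the highest share of neuron markers (3.52%, 3.09% and 2.21% of counts) and astrocyte markers (0.214%, 0.142% and 0.114%). Over the 13 iPKR libraries, log2 C4b and the log2 neuron marker share had a Pearson r of 0.679 and the ranks of both a Spearman rho of 0.357, given as a description of libraries that share construct and batch. For astrocyte markers these values were 0.68 and 0.346, and for oligodendrocyte markers 0.345 and 0.132. Without those 3 libraries C4b of 5xFAD iPKR over 5xFAD TRAP was 3.06 ± 1.05 on the log2 scale (SE, adjusted p = 0.0242), with 22.7 and 19.0 CPM in the 2 libraries left. C4b is also made by astrocytes and oligodendrocytes, and the part of other cell types in these reads was not tested. Reads of the near-identical C4a could be split with C4b, and C4a had 35 counts in all libraries together, against 2276 for C4b.

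**Figure D2:**
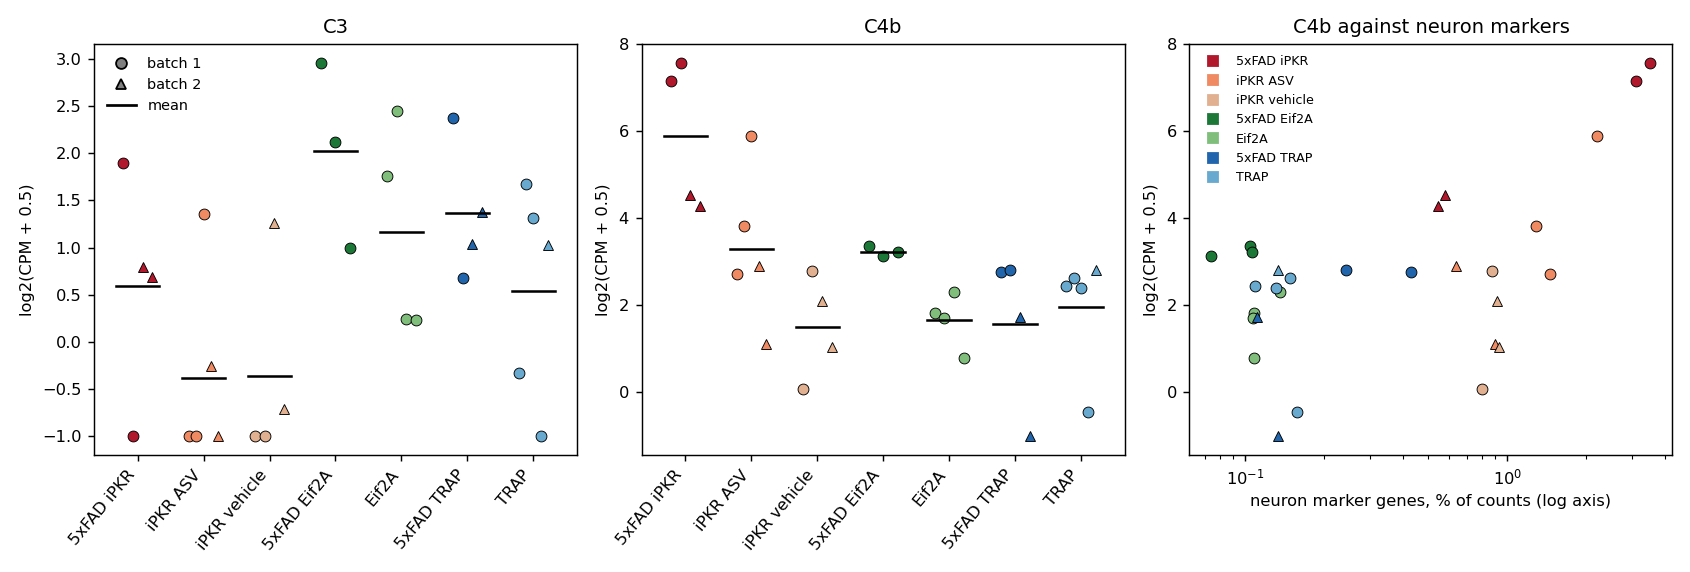
Levels of C3 and C4b in every library as log2(CPM + 0.5), by group, with circles for batch 1, triangles for batch 2 and a bar for the mean of the plotted values, and C4b against the share of counts in neuron marker genes (log axis). The 3 libraries with C4b above 59 CPM are the 3 at the right, with over 2.2% of counts in neuron markers.

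The genes most like C4b over the 16 libraries without iPKR were Vps37a (Pearson r = 0.902), Hsd17b12 (0.878), Tbce (0.856), Ankrd46 (0.849) and Mettl25 (0.847). With 0 to 86 C4b counts in those libraries, this order rests on few reads.

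C3, the hub on which the pathways converge, was barely represented. All 29 libraries together held 266 C3 counts, 7 libraries had none and 19 had under 10. The highest levels were 7.29 CPM in 5xFAD Eif2A replicate 1, 4.97 CPM in Eif2A replicate 2 and 4.67 CPM in 5xFAD TRAP replicate 1. C3 passed in none of the 10 comparisons in the model over all libraries. In iPKR vehicle over TRAP, where that model gave -1.21 ± 1.52, it passed in batch 1 alone (-5.88 ± 2.18, adjusted p = 0.0300) and without iPKR vehicle replicate 3 (-4.73). Both iPKR vehicle libraries of batch 1 had 0 counts, so the size of these fitted values is no measure of a fold. Its log2 fold change of 5xFAD TRAP over TRAP was 1.06 with a 95% interval of -1.55 to 3.68, so a several-fold change was not detectable at this depth.

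Of the receptors for the small fragments, C3ar1 stood higher in 5xFAD mice. It held 258.0, 293.7, 255.4 and 171.2 CPM in 5xFAD TRAP libraries, against 122.9, 139.6, 156.8, 154.3 and 141.2 CPM in TRAP libraries. Every 5xFAD TRAP library was above every TRAP library, and batch 2 replicate 4 was the lowest of the 5xFAD group. The log2 fold change of 0.92 ± 0.46 (SE, adjusted p = 0.507) did not pass in the model over all libraries. In the model of the 4 groups without iPKR, which called 6.94% of all genes here, it was 0.81 ± 0.17 and passed (adjusted p = 0.00731).

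C3ar1 was likewise higher in the other background. It stood at 337.5, 369.1 and 313.4 CPM in 5xFAD Eif2A libraries, against 134.0, 104.0, 186.5 and 105.7 CPM in Eif2A libraries. No libraries overlapped. The log2 fold change was 1.38 ± 0.50 over all libraries (SE, adjusted p = 0.155) and 1.34 ± 0.18 in the model without iPKR (adjusted p = 5.8e-05), so the call was made in the second model only.

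C5ar1 differed less. It held 118.5, 167.7, 116.6 and 129.9 CPM in 5xFAD TRAP libraries, against 101.9, 112.1, 156.0, 135.1 and 131.7 CPM in TRAP libraries. The groups overlapped and the log2 fold change was -0.04 ± 0.37 (SE, adjusted p = 0.993). In 5xFAD Eif2A libraries it held 136.6, 185.6 and 143.2 CPM, against 68.1, 75.9, 145.1 and 76.2 CPM in Eif2A libraries, where replicate 3 lay far above the rest. That log2 fold change was 0.75 ± 0.40 (adjusted p = 0.398), and it passed in the model without iPKR (0.72 ± 0.22, adjusted p = 0.0334).

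The balance of both receptors can be read as C3ar1 counts over C5ar1 counts, which does not depend on the scaling of a library. The ratio was 1.32 to 2.19 in 5xFAD TRAP libraries, against 1.01 to 1.25 in TRAP libraries. It was 1.99 to 2.47 in 5xFAD Eif2A libraries, against 1.29 to 1.97 in Eif2A libraries. Neither pair overlapped, with log2 differences of 0.69 (exact permutation test, two-sided, p = 0.00794, the smallest possible) and 0.58 (exact p = 0.0571), both at an adjusted p over 32 ratio comparisons that does not pass (0.113 and 0.166). Eif2A over TRAP did not overlap either, at 1.29 to 1.97 against 1.01 to 1.25 (log2 difference 0.39, exact p = 0.00794, adjusted p = 0.113).

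**Figure D3:**
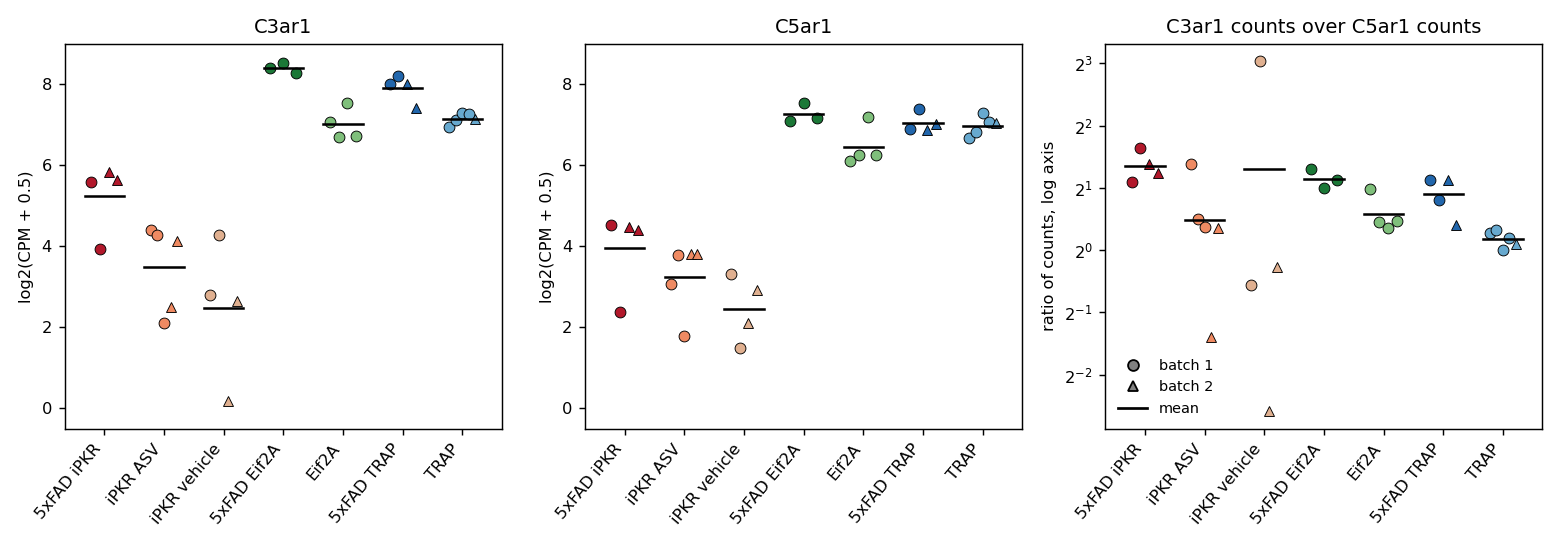
Levels of C3ar1 and C5ar1 in every library as log2(CPM + 0.5), by group, and the ratio of their counts (log axis), with circles for batch 1, triangles for batch 2 and a bar for the mean (of the plotted log values in the first 2 panels, of the ratios in the third). C3ar1 lies higher in 5xFAD TRAP and 5xFAD Eif2A libraries than in their controls without overlap, and the ratio spreads widely in iPKR vehicle libraries, at 0.167 to 8.17.

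The chains of CR3 stood differently in 5xFAD mice. Itgb2, the beta chain CD18 shared by the leukocyte integrins, held 383.1, 445.4, 425.3 and 353.8 CPM in 5xFAD TRAP libraries, against 173.7, 280.8, 261.3, 231.3 and 287.1 CPM in TRAP libraries. Every 5xFAD TRAP library was above every TRAP library. The log2 fold change of 0.74 ± 0.22 (SE, unadjusted p = 0.00184) had an adjusted p of 0.128 and did not pass over all libraries. It passed in the model without iPKR (0.72 ± 0.13, adjusted p = 0.00179) and with DESeq2 (0.72 ± 0.21, adjusted p = 0.0400; 2.11% of genes called), and in batch 1 alone it was 0.86 ± 0.22 (adjusted p = 0.0709).

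Itgam, the alpha chain CD11b particular to CR3, did not follow. It held 285.7, 382.4, 428.4 and 392.6 CPM in 5xFAD TRAP libraries, against 343.9, 404.5, 418.2, 332.3 and 323.5 CPM in TRAP libraries. The groups overlapped, with a log2 fold change of 0.12 ± 0.21 and a 95% interval of -0.31 to 0.55 (adjusted p = 0.902). None of the 9 genes thus passed in 5xFAD TRAP over TRAP, where 0.79% of all genes tested did. In the model without iPKR 2 passed (C3ar1 and Itgb2), against 6.94% of all genes in that model. TRAP mice were not given VEGF or ASV, so transgenes and injections cannot be told apart here.

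In 5xFAD Eif2A libraries Itgb2 held 634.1, 589.0 and 592.3 CPM, against 233.4, 177.4, 227.9 and 227.2 CPM in Eif2A libraries. The groups lay far apart and neither received injections, although Eif2A replicate 2 lay below the rest of its group. Itgb2 rose by 1.53 ± 0.24 on the log2 scale, 2.88-fold (SE, adjusted p = 0.000227). It was the only one of the 9 genes to pass, against 3.1% of all genes tested in either direction and 2.08% as higher. Itgam held 481.6, 418.7 and 408.0 CPM in 5xFAD Eif2A libraries, against 369.9, 320.5, 400.3 and 373.9 CPM in Eif2A libraries, without overlap but with a log2 fold change of 0.31 ± 0.23 that did not pass (adjusted p = 0.596). Scaled to the homeostatic microglial genes in place of library size, Itgb2 stood at 1.22 ± 0.35 and no longer passed (adjusted p = 0.0903). That scaling gave 72 higher and 123 lower genes in all, against 334 and 165 by library size.

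In iPKR mice both chains rose. Itgb2 held 118.7, 64.5, 101.7 and 65.4 CPM in 5xFAD iPKR libraries, against 10.5, 15.9, 19.4, 17.4 and 28.4 CPM in iPKR ASV libraries. Itgam held 117.5, 57.4, 104.4 and 90.8 CPM in 5xFAD iPKR libraries, against 32.0, 39.4, 38.0, 19.5 and 48.3 CPM in iPKR ASV libraries. Neither gene overlapped between the groups. Itgb2 rose by 2.16 ± 0.22 on the log2 scale, 4.46-fold (SE, adjusted p = 1.61e-06), and Itgam by 1.25 ± 0.21, 2.38-fold (adjusted p = 0.000806). These were 2 of 9 genes, against 1.72% of all genes tested in either direction and 1.54% as higher, and both groups received VEGF and ASV, started at 5 months of age in 5xFAD iPKR mice and at 4 to 5 months in iPKR ASV mice.

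The share of microglial RNA was also higher in 3 of the 4 5xFAD iPKR libraries than in any iPKR ASV library, while replicate 2 lay below 4 of the 5. The homeostatic genes held 0.338%, 0.108%, 0.637% and 0.532% of counts in 5xFAD iPKR libraries, against 0.129%, 0.187%, 0.0570%, 0.189% and 0.304% in iPKR ASV libraries. Scaled to these genes, Itgb2 still passed (0.98 ± 0.32, adjusted p = 0.0171) and Itgam did not (0.05 ± 0.29, adjusted p = 0.894). On that scale the median of all genes was -1.23, with 41 called higher and 7256 lower, against 248 and 29 by library size. In a model of the 2 groups alone, which called 0.0742% of all genes, neither passed, at 2.04 ± 0.32 for Itgb2 (adjusted p = 0.0589) and 1.12 ± 0.28 for Itgam (adjusted p = 0.39).

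Itgax, the alpha chain CD11c that pairs with Itgb2 to form CR4, passed in all 3 comparisons of 5xFAD mice with their own background. It held 41.7, 63.6, 39.4 and 23.4 CPM in 5xFAD TRAP libraries, against 3.80, 4.39, 0.624, 1.05 and 2.12 CPM in TRAP libraries. No library overlapped. Itgax rose by 4.51 ± 0.69 on the log2 scale in 5xFAD TRAP over TRAP (SE, adjusted p = 0.000342), by 3.91 ± 0.72 in 5xFAD Eif2A over Eif2A (adjusted p = 0.00165) and by 4.64 ± 0.73 in 5xFAD iPKR over iPKR ASV (adjusted p = 0.000388). Itgax is a well-known marker of plaque-associated microglia.

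Itgam counts over Itgb2 counts stood lower in 5xFAD mice. The ratio was 0.746 to 1.11 in 5xFAD TRAP libraries, against 1.13 to 1.98 in TRAP libraries, and 0.689 to 0.760 in 5xFAD Eif2A libraries, against 1.59 to 1.81 in Eif2A libraries. It was 0.890 to 1.39 in 5xFAD iPKR libraries, against 1.12 to 3.04 in iPKR ASV libraries. The first 2 pairs did not overlap and the third did. The log2 differences were -0.70, -1.24 and -0.88 (exact permutation tests, two-sided, p = 0.0159, 0.0286 and 0.0317), each with an adjusted p of 0.113 over 32 ratio comparisons, which does not pass. Since both counts come from 1 library, its scaling does not enter. Gene lengths affect the ratio alike in all groups. Low counts make it less certain, as in iPKR ASV replicate 1, whose ratio of 3.04 rests on 24 Itgb2 counts. The permutation tests hold no batch or sex term. In batch 1 the ratio was 0.746 and 0.859 in 5xFAD TRAP libraries, against 1.44 to 1.98 in TRAP libraries. In batch 2 it was 1.01 and 1.11, against 1.13 in TRAP replicate 5.

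**Figure D4:**
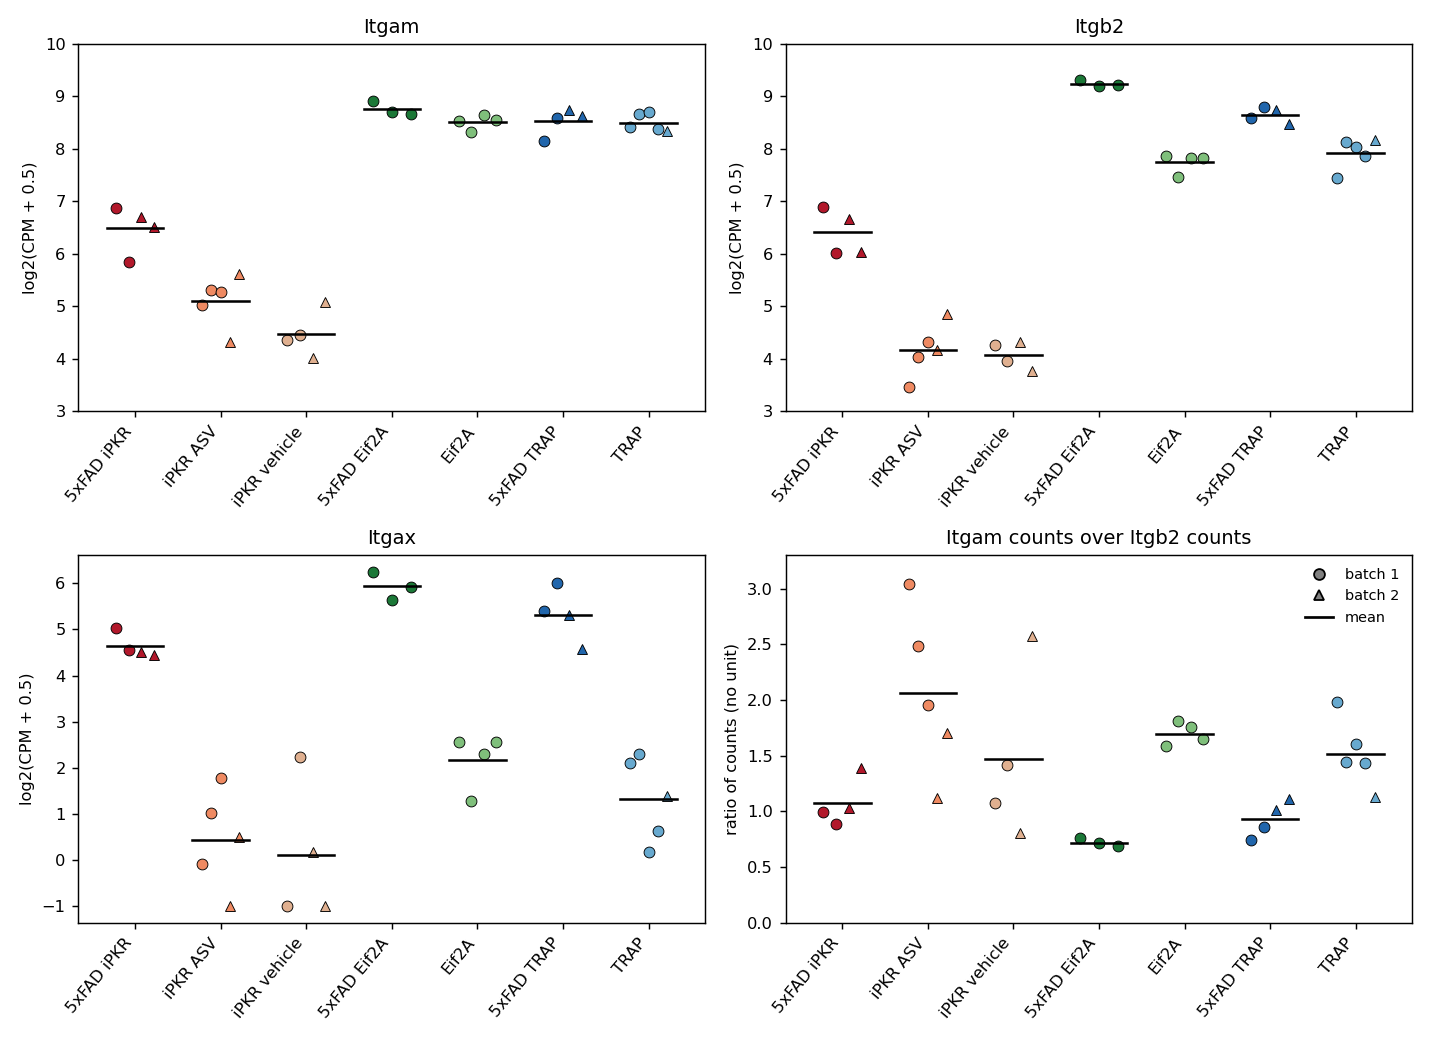
Levels of Itgam, Itgb2 and Itgax in every library as log2(CPM + 0.5), by group, and the ratio of Itgam to Itgb2 counts, with circles for batch 1, triangles for batch 2 and a bar for the mean of the plotted values. In 5xFAD TRAP and 5xFAD Eif2A libraries Itgb2 and Itgax lie above their controls without overlap, and the ratio lies below.

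The remaining genes of 5xFAD iPKR over iPKR ASV all stood higher without passing. C3ar1 held 47.9, 14.8, 56.8 and 49.2 CPM in 5xFAD iPKR libraries, against 20.6, 19.1, 3.83, 5.16 and 17.2 CPM in iPKR ASV libraries. 5xFAD iPKR replicate 2, 1 of the neuron-rich libraries, lay within the range of iPKR ASV and the other 3 above it. The log2 fold change was 1.74 ± 0.49 (SE, adjusted p = 0.0712). C1qa, C1qb and C1qc stood at 1.15 ± 0.52, 1.21 ± 0.56 and 1.25 ± 0.54, C4b at 2.43 ± 0.73 and C5ar1 at 0.79 ± 0.40 (adjusted p = 0.328, 0.345, 0.300, 0.0906 and 0.401). Scaled to homeostatic genes, C1qa stood at -0.06, C1qb at -0.01, C1qc at 0.02, C3 at -0.60, C5ar1 at -0.52, C3ar1 at 0.46 and C4b at 1.32, and none of these passed.

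Some of those calls changed when the 3 neuron-rich libraries were left out. Without them, 6 of the 9 genes passed in 5xFAD iPKR over iPKR ASV, against 4.28% of all genes in that fit. C1qa then rose by 1.46 ± 0.32, C1qb by 1.63 ± 0.33, C1qc by 1.67 ± 0.31 and C3ar1 by 2.09 ± 0.46 on the log2 scale (SE, adjusted p = 0.00604, 0.00351, 0.00137 and 0.00639), beside Itgam and Itgb2. With 2 libraries left for 5xFAD iPKR, both of batch 2, that fit leans on the spread of the other groups. Neuron marker share, batch and group size change together in it and cannot be told apart.

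Whether the 5xFAD effect differed by background was tested as a difference of differences. 5xFAD TRAP mice received VEGF and ASV and TRAP mice did not. 5xFAD iPKR and iPKR ASV mice received both, and 5xFAD Eif2A and Eif2A mice received neither. Background and injections thus cannot be told apart in these differences. For Itgb2 the 5xFAD effect with iPKR minus that with TRAP was 1.42 ± 0.32 on the log2 scale (SE, unadjusted p = 0.000127, adjusted p = 0.134), and for Itgam it was 1.13 ± 0.30 (adjusted p = 0.284). None of the 9 genes passed, against 0.0373% of all genes tested. Both did pass with DESeq2 (adjusted p = 0.00144 and 0.00731), which called 0.735% of all genes. Scaled to homeostatic genes the differences were 0.09 ± 0.46 for Itgb2 and -0.27 ± 0.42 for Itgam, and neither passed. That scaling called 4 genes higher and 3171 lower in all, against 1 and 5 by library size.

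With Eif2A in place of iPKR, the difference for Itgb2 was 0.79 ± 0.32 (SE, unadjusted p = 0.0205, adjusted p = 1), and none of the 9 genes passed, against 0.00622% of all genes tested. The 5xFAD mice themselves differed in the same direction. Itgb2 was higher in every 5xFAD Eif2A library than in every 5xFAD TRAP library, at 589.0 to 634.1 against 353.8 to 445.4 CPM, with a log2 fold change of 0.58 ± 0.25 (adjusted p = 0.390). C1qa did not overlap there either, at 6412 to 7137 against 3691 to 5884 CPM (1.06 ± 0.57, adjusted p = 0.528). 5xFAD TRAP mice were in both batches and 5xFAD Eif2A mice in batch 1 alone, so the batch term enters this value. Within batch 1 alone, C1qa of 5xFAD Eif2A over 5xFAD TRAP was 0.76 ± 0.70 on the log2 scale (adjusted p = 0.843). In the model over all libraries, all 9 log2 fold changes of 5xFAD Eif2A over 5xFAD TRAP were positive. Their median was 0.58, beside a median of 0.03 over all genes, and none passed, against 0.168% of all genes tested. Of the 12 homeostatic microglial genes 9 were positive too, with a median of 0.39. Scaled to those genes, C3ar1 (-0.15) and Itgam (-0.32) were negative and the others stayed positive, with a median of -0.40 over all genes.

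In that comparison 2 of the 9 genes passed in the model without iPKR, against 4.25% of all genes in it, namely C1qa (0.74 ± 0.17, adjusted p = 0.0159) and C1qc (0.70 ± 0.18, adjusted p = 0.034). With the 2 groups alone 4 passed, C1qa, C1qb, C1qc and Itgb2, against 9.06% of all genes. 5xFAD Eif2A mice received no injections and had no library in batch 2, so genotype and injections cannot be told apart in it.

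Eif2A and TRAP mice were compared without 5xFAD. The 9 log2 fold changes of Eif2A over TRAP ran between -1.07 (C4b) and 0.78 (C3), and their median was -0.05. None passed by edgeR, against 0% of all genes tested, since no gene passed in this comparison (912 genes had an unadjusted p under 0.05, DESeq2 called 41, and the model without iPKR called 1.97%, with 241 genes higher and 31 lower). In that last model too, none of the 9 genes passed. The 95% intervals were narrowest for Itgam, at -0.47 to 0.36, and Itgb2, at -0.65 to 0.23, so larger changes of CR3 lay outside the interval while those of C3 and C4b did not.

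With the iPKR construct 7 of the 9 genes were lower. iPKR vehicle mice also received VEGF and solvent and TRAP mice neither, so construct and injections cannot be told apart in the first comparison. C1qb held 197.2, 406.9, 597.9 and 456.7 CPM in iPKR vehicle libraries, against 5387 to 10310 CPM in TRAP libraries. C1qa, C1qb and C1qc fell by 4.54 ± 0.60, 4.64 ± 0.65 and 4.55 ± 0.62 on the log2 scale (SE, adjusted p = 4.05e-07, 9.60e-07 and 7.08e-07). Itgam, at 15.8 to 33.6 against 323.5 to 418.2 CPM, fell by 3.94 ± 0.24, and Itgb2, at 13.1 to 19.6 against 173.7 to 287.1 CPM, fell by 3.85 ± 0.25 (adjusted p = 1.49e-11 and 1.59e-11). C3ar1 fell by 3.99 ± 0.53 and C5ar1 by 4.69 ± 0.45 (adjusted p = 4.80e-07 and 3.50e-09). C3 and C4b did not pass. These 7 stand against 25.4% of all genes that passed as lower, of 54.1% that passed in either direction.

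The same 7 genes were lower in 5xFAD iPKR than in 5xFAD TRAP libraries, where 23% of all genes passed as lower, of 47.9% in either direction. C1qb held 798.0, 112.5, 2609 and 2762 CPM in 5xFAD iPKR libraries, against 7070 to 11020 CPM in 5xFAD TRAP libraries. C1qb fell by 3.01 ± 0.64, C3ar1 by 2.54 ± 0.52, C5ar1 by 2.87 ± 0.43, Itgam by 2.23 ± 0.23 and Itgb2 by 2.34 ± 0.24 on the log2 scale (SE, adjusted p = 0.000331, 0.000248, 6.67e-06, 9.20e-08 and 9.81e-08). C4b rose, as above, among the 25% of genes that passed as higher. Both comparisons are between separate groups of mice, and each has its own controls.

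These differences went with a lower share of microglial RNA in the iPKR libraries. The libraries come from tagged ribosomes, and the tag sits in a different construct in iPKR mice. Fewer cells of a type, less RNA per cell and a different yield of tagged ribosomes cannot be told apart here. Scaled to the summed homeostatic microglial genes, the C1q chains of iPKR vehicle over TRAP stood at -0.60 ± 0.37 for C1qa, -0.70 ± 0.42 for C1qb and -0.61 ± 0.39 for C1qc (SE, adjusted p = 0.126, 0.112 and 0.142), and none passed. Itgam stood at 0.15 ± 0.30 and Itgb2 at 0.19 ± 0.33, on the other side of 0. Of the 9 genes only C4b passed on that scale, at 3.90 ± 1.07 in iPKR vehicle over TRAP (adjusted p = 0.00151) and 7.47 ± 1.28 in 5xFAD iPKR over 5xFAD TRAP (adjusted p = 1.17e-05). That scaling moved the median of all genes to 4.21 in iPKR vehicle over TRAP, with 14504 genes higher and 62 lower, against 4605 and 4090 by library size, so C4b lay near the middle of all genes there. In 5xFAD iPKR over 5xFAD TRAP that median was 2.90, with 13025 higher and 43 lower, against 4015 and 3689.

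**Figure D5:**
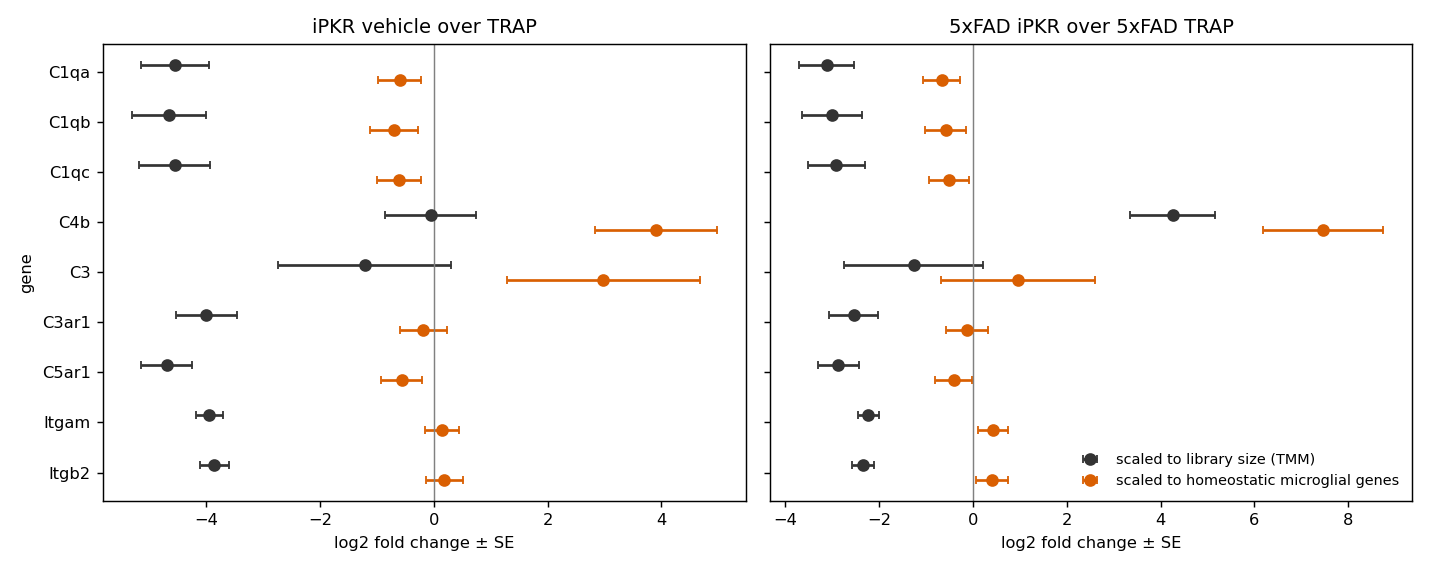
Log2 fold changes with SE of the 9 genes for iPKR vehicle over TRAP and 5xFAD iPKR over 5xFAD TRAP, scaled to library size (dark) and to the summed homeostatic microglial genes (orange). On the second scale the 3 C1q chains lie between -0.70 and -0.51 and both CR3 chains between 0.15 and 0.42, against -4.64 to -2.23 on the first.

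Per 1000 counts of homeostatic genes, C1qb gave 235.6, 105.6, 486.7 and 601.4 counts in 5xFAD iPKR libraries and 286.9, 316.0, 58.2, 351.2 and 610.6 counts in iPKR ASV libraries. iPKR vehicle libraries gave 186.8 to 421.9 counts, against 330.8 to 509.9 counts in TRAP libraries. Over the 13 iPKR libraries the lowest values were those of 2 neuron-rich libraries, and the highest in each group those of batch 2.

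ASV itself was compared in iPKR ASV over iPKR vehicle, both of which received VEGF. None of the 9 genes passed, against 0.423% of all genes tested. Itgam held 19.5 to 48.3 CPM in iPKR ASV libraries, against 15.8 to 33.6 CPM in iPKR vehicle libraries, with a log2 fold change of 0.57 ± 0.21 (SE, adjusted p = 0.181), and it passed with DESeq2 alone (adjusted p = 0.0489; 3.27% of genes called). C1qb stood at 0.28 ± 0.53, with a 95% interval of -0.81 to 1.37.

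Of 57 other complement genes listed, 49 were in the table and 34 were tested. In 5xFAD TRAP over TRAP and in 5xFAD Eif2A over Eif2A, Itgax was the 1 gene that passed (0.709% and 2.08% of all genes passed as higher). In 5xFAD iPKR over iPKR ASV 4 rose and none fell, with a median of 0.57 over the 34 beside 0 over all genes. Beside Itgax these were C5ar2, the second receptor for C5a (3.95 ± 0.98 on the log2 scale, adjusted p = 0.0318), Calr, the chaperone calreticulin, which binds C1q at the cell surface (1.20 ± 0.31, adjusted p = 0.0388), and Cr1l, a membrane regulator of C3 also called Crry (1.03 ± 0.27, adjusted p = 0.0445). C5ar2 was at 0 in 3 of 5 iPKR ASV libraries and at 0.592 to 4.02 CPM in 5xFAD iPKR libraries. Among iPKR mice Calr was highest in the neuron-rich libraries, at 797.2 and 837.5 CPM in 5xFAD iPKR replicates 1 and 2 and 504.0 CPM in iPKR ASV replicate 3.

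In iPKR vehicle over TRAP 8 of the 34 rose and 5 fell, against 28.6% and 25.4% of all genes. Cr1l fell by 2.55 ± 0.28 on the log2 scale (SE, adjusted p = 2.88e-08). Susd4, a membrane regulator found in brain, rose by 2.61 ± 0.23 (adjusted p = 1.15e-09), and Clu, the secreted inhibitor clusterin made largely by astrocytes and neurons, rose by 2.92 ± 0.44 (adjusted p = 3.62e-06).

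In 5xFAD iPKR over 5xFAD TRAP 11 of the 34 rose and 3 fell, against 25% and 23% of all genes. Susd4 rose by 2.59 ± 0.26, Clu by 3.06 ± 0.48, and the brain membrane proteins Csmd1 and Csmd2, which carry complement control domains, by 3.02 ± 0.45 and 3.33 ± 0.54 on the log2 scale (SE, adjusted p = 8.49e-08, 1.01e-05, 6.14e-06 and 1.71e-05). Clu held 1191 and 1641 CPM in 5xFAD iPKR replicates 1 and 2 and 312.2 and 316.0 CPM in replicates 3 and 4, against 47.7 to 118.9 CPM in 5xFAD TRAP libraries. Within this group Clu was thus highest in the libraries richest in neuron markers, as C4b was. Across the other iPKR groups the order was not the same. iPKR ASV replicates 1 and 2, with 1.45% and 1.28% of counts in neuron markers, held 181.8 and 198.2 CPM of Clu. iPKR vehicle replicates 3 and 4, with 0.911% and 0.934%, held 317.2 and 321.7 CPM. The part of other cell types in Clu was not tested. No listed gene passed in Eif2A over TRAP, 5xFAD Eif2A over 5xFAD TRAP or iPKR ASV over iPKR vehicle.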

How the data were processed

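The labels name the SMART-Seq mRNA LP kit for library construction. Read trimming (Trim Galore), alignment to mm10 (HISAT2 2.2.1) and counting (featureCounts 2.0.3) are known from the submitters' processing notes. Strand and multi-mapping settings are not given in the sources used here. The deposited table holds raw counts per gene symbol. The authors' RPKM table was not used. The 9 genes and all lists were chosen with earlier results of these data known.

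In R 4.3.3, edgeR 4.0.16 fitted 1 model (group, batch, labelled sex) to all 29 libraries, with TMM factors and filterByExpr (minimum count 10). Quasi-likelihood F-tests were two-sided, with Benjamini-Hochberg adjustment over 16074 genes and a threshold of 0.05. CPM are TMM-scaled counts. CPM per kilobase use the exon union of GENCODE M21. Ratios of counts were compared by exact permutation tests without batch or sex terms, in a family of 32 chosen after the data were seen. The steps were tested on simulated data. Simulated 2-fold changes were called in 4.69% (5xFAD TRAP over TRAP) to 18.2% (iPKR ASV over iPKR vehicle) of the changed genes. For 4-fold changes the shares were 47.6% (5xFAD iPKR over iPKR ASV) to 63.1% (iPKR ASV over iPKR vehicle).

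Alternatives were RLE factors, no filter, no sex or batch term, sex from Y-linked counts, batch 1 alone, fewer groups, no neuron-rich libraries, homeostatic scaling, DESeq2 1.42.0, a replicate block and leaving out each library. Named genes were the 9 members, up to 4 other listed complement genes per comparison by smallest p, and the 5 genes most like C1q and C4b. A result under this rule is not reported here. No 2 libraries of a group were copies. Total counts of 1662486 to 31998042 per library and groups of 3 to 5 set the precision.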

Additional observations from a re-analysis of the deposited data

Results flagged for a closer look

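In Dixon's test at the 95% level 7 values lay far from the rest of their group, of 54 groups of 4 or 5 libraries tested, and chance flags about 1 in 20 groups. C3 held 2.06 CPM in iPKR ASV replicate 3 (0 to 0.337 in the others) and 1.89 CPM in iPKR vehicle replicate 3 (0 to 0.112 in the others), which are 7 and 9 counts. C4b held 59.2 CPM in iPKR ASV replicate 3 (1.68 to 13.8 in the others) and 0.232 CPM in TRAP replicate 4 (4.79 to 6.54 in the others). C5ar1 held 4.74 CPM in 5xFAD iPKR replicate 2 (20.8 to 22.5 in the others) and 145.1 CPM in Eif2A replicate 3 (68.1 to 76.2 in the others). Itgb2 held 177.4 CPM in Eif2A replicate 2 (227.2 to 233.4 in the others). iPKR ASV replicate 3 and 5xFAD iPKR replicate 2 are 2 of the 3 libraries richest in neuron markers.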

How the results depend on the processing

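Beside each count below stands the number of all genes tested that passed under the same setting. The number of the 9 genes that passed was 0 in 5xFAD TRAP over TRAP (127 of 16074). It became 2 in the model without iPKR (958 of 13800), 2 with the groups compared alone (749 of 12248) and 1 with DESeq2 (339 of 16064). In 5xFAD Eif2A over Eif2A it was 1 (499 of 16074). It became 5 without iPKR (2090 of 13800), 3 with the groups alone (1664 of 12854) and 0 scaled to homeostatic genes (195 of 16074). In 5xFAD iPKR over iPKR ASV it was 2 (277 of 16074). It became 4 with DESeq2 (674 of 14818) and 0 with the groups alone (10 of 13473). On homeostatic scaling it was 1 (7297 of 16074), and without the 3 neuron-rich libraries 6 (739 of 17267). With each library left out in turn it was 2 to 4. It was 4 without 5xFAD iPKR replicate 2 (472 of 16043) and 3 without iPKR ASV replicate 3 (542 of 16073). In 5xFAD Eif2A over 5xFAD TRAP it was 0 (27 of 16074). It became 2 without iPKR (586 of 13800) and 4 with the groups alone (1095 of 12088). In iPKR ASV over iPKR vehicle it was 0 (68 of 16074), and 1 with DESeq2 (525 of 16064). In iPKR vehicle over TRAP it was 7 (8695 of 16074) and in 5xFAD iPKR over 5xFAD TRAP 8 (7704 of 16074). Both became 1 on homeostatic scaling (14566 and 13068 of 16074). The count of 7 became 8, with C3, in batch 1 alone (8185 of 15152) and without iPKR vehicle replicate 3 (8543 of 15989). The difference of the 5xFAD effect on iPKR minus that on TRAP had 0 (6 of 16074). That count became 2 with DESeq2 (118 of 16064) and 1 with sex from Y-linked counts (12 of 16074). Without the neuron-rich libraries it was 3 (281 of 17267), and with a library left out 0 to 2. It was 2 without 5xFAD iPKR replicate 2 (103 of 16043). It was 1 each without 5xFAD iPKR replicate 4 (10 of 15924) or iPKR ASV replicate 5 (10 of 15850). Of 1884 fold changes of the 9 genes under the alternatives, 91 changed sign. In 86 the gene passed under neither setting (18 on homeostatic scaling, 13 in batch 1 alone). In the other 5, all on homeostatic scaling, it passed under one of them, for Itgam (0.15 in iPKR vehicle over TRAP and 0.42 in 5xFAD iPKR over 5xFAD TRAP), Itgb2 (0.19 and 0.41) and C4b (3.90 in iPKR vehicle over TRAP). The model without iPKR estimates the spread without the iPKR libraries, and a model of the groups compared alone estimates it from those groups only. Homeostatic scaling changes the baseline by construction. The cause of the shifts was not tested. A replicate block changed none of these counts of the 9 genes. It gave 7 in iPKR vehicle over TRAP (7718 of 16074) and 2 in 5xFAD iPKR over iPKR ASV (135 of 16074). Replicate numbers showed no pairing, with a median correlation of 0.01 over 79 pairs of the same number. C3 counts, and C4b counts outside iPKR mice, are too few for small changes to be detectable.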
